A study of Mus musculus with 36 samples.

Results

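Adipocytes lie within skeletal muscle in small numbers, and their transcripts reach RNA taken from the whole muscle. The genes described here are 9 markers of adipocytes, Adipoq, Lep, Cfd, Plin1, Fabp4, Retn, Cidec, Pparg and Car5a. They were chosen by their gene symbols, and all 9 were found among the 46893 features of the count table. Gastrocnemius RNA of 36 male C57BL/6 wild-type mice was sequenced, 1 library per mouse and 6 mice per group. The mice were 3 to 4 weeks old at the start and spent 12 weeks on their diets. The sedentary NFD-C group ate the AIN93G diet, with 16% of energy from fat, and the sedentary HFD-C group ate a high-fat diet with 45%. The remaining groups ate the same high-fat diet and ran on an in-cage wheel, freely in HFD-U, at a distance of 8.3 km/day. In HFD-25%, HFD-50% and HFD-75% a brake held the wheel back to 25, 50 and 75% of free running, which came to 2.1, 4.2 and 6.3 km/day. All running groups were on the high-fat diet, so running and the NFD were never combined, and only males were studied.

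A fat cell stores triglyceride in one large lipid droplet and releases hormones into the blood. Perilipin 1 (Plin1) coats that droplet and Cidec (also called FSP27) lets droplets fuse, whereas adiponectin (Adipoq), leptin (Lep), resistin (Retn) and adipsin (Cfd, complement factor D) are secreted. Pparg encodes the nuclear receptor that directs adipocyte differentiation, and Fabp4 encodes a carrier of fatty acids. Both of these genes are also known to be expressed outside adipocytes, among others in the endothelium of capillaries. Car5a encodes a mitochondrial carbonic anhydrase.

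All 9 genes are annotated as protein coding. On GRCm39, the assembly whose chromosome sequences the count table names, Adipoq lies on the plus strand of chromosome 16 (22965286 to 22976718), Cfd on that of chromosome 10 (79726687 to 79728489), and Retn on that of chromosome 8 (3705770 to 3709818). Chromosome 6 holds Lep (29060220 to 29073875, plus strand), Cidec (113401595 to 113412721, minus strand) and Pparg (115337840 to 115467365, plus strand). Plin1 (chromosome 7, 79370912 to 79382652), Fabp4 (chromosome 3, 10269402 to 10273676) and Car5a (chromosome 8, 122642874 to 122671651) lie on the minus strand. The summed exon lengths used for levels per length were 892 bases for Fabp4 to 3714 bases for Pparg.

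The promoters of 4 of the 6 markers that were found to rise and fall together from mouse to mouse are shown first, and these 4 genes recur in the results. RefSeq promoter sequences on GRCm38.p6, with 250 bases before and 50 after the start of transcription, were matched by symbol for 8 of the 9 genes and gave 11 promoters. Capitals mark matches to TTGCNNAA, a form of the site bound by C/EBP factors, to AGGTCA, the half-site bound by nuclear receptors such as PPARγ, and to TATAAA, searched on both strands.
Adipoq, chr16:23146286-23146585, plus strand: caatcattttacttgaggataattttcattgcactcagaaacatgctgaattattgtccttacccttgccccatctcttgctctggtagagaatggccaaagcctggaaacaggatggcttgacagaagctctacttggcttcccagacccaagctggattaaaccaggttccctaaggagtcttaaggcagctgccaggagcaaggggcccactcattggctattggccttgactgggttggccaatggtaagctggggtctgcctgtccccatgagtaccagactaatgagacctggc
Lep, chr6:29059971-29060270, plus strand: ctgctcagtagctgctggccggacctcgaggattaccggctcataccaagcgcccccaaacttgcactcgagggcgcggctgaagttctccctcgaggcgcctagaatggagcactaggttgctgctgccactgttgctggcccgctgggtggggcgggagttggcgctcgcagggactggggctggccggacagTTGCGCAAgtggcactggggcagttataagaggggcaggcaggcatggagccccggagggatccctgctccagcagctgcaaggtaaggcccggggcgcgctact
Plin1, chr7:79732727-79733026, minus strand: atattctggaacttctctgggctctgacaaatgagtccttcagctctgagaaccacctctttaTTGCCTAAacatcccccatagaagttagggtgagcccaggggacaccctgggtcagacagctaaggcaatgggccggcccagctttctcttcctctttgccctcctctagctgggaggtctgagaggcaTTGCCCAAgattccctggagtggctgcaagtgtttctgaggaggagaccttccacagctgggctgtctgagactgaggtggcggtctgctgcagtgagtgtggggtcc
Cidec, chr6:113434715-113435014, minus strand: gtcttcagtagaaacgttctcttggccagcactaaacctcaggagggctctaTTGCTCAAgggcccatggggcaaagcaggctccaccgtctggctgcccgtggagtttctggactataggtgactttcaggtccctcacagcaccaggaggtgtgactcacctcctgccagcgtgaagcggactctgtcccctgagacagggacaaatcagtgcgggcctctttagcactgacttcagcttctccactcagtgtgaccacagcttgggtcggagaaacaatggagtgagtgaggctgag
Counted from the start of transcription, TTGCNNAA stood at position -55 in Lep, at -187 and -58 in Plin1, and at -198 in the Cidec promoter shown. It was present in 4 of the 11 promoters, those just named and 1 of Pparg, against 10.8% of all 32851 promoters in the table. AGGTCA was present in 2 of the Pparg promoters and in no other promoter of these genes, against 16.3% of all promoters, and TATAAA in 1 Pparg promoter, against 13.6%. None of the 3 motifs was in the Adipoq promoter shown. The same held for the promoters of Cfd and Retn, the other markers that rose and fell with these 4. A match describes the letters only.

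The libraries held between 13060090 and 27981702 counts on genes. A count of 0 in a single library allowed a level of up to 0.106 to 0.231 counts per 1e+06 library counts (CPM, scaled with TMM factors), counting error only. Counts on 5 ribosomal RNA-linked features divided the 36 libraries, with a gap between both sets. Their share was 2.01 to 3.80% in the NFD-C mice and in HFD-C mice 1 to 4, and 0.404 to 1.02% in HFD-C mice 5 and 6 and all runners. Results are therefore also given within these sets where they differed. The muscle fibre markers Acta1 and Tnnt3 had mean levels of 16509 and 17154 FPKM (CPM per kilobase of gene length). Of 7 genes listed as markers of brown fat, Ucp1 and Elovl3 had counts of 0 in 35 and 34 of the 36 libraries. Dio2 and Prdm16 had counts in all 36, and Cidea, Zic1 and Otop1 had a count of 0 in 2, 4 and 10 libraries.

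The level per length differed widely between the 9 genes. Fabp4 had a mean of 248 FPKM over the 36 mice, and its lowest mouse (120 FPKM) lay above the highest mouse for every other marker. Cfd followed with 7.53 FPKM, then Adipoq with 1.90, Cidec with 1.74, Pparg with 0.704, Plin1 with 0.623, Retn with 0.531 and Lep with 0.474 FPKM. From Cfd downwards the ranges over mice overlapped between every pair of neighbours. Car5a had no count in 34 libraries, with 4 counts in HFD-C mouse 1 and 5 counts in HFD-U mouse 3. It stayed in the pair, list, ratio and exact tests below and in fits with no minimum count. Its values there rest on these few counts.

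The secreted factors and the droplet proteins varied widely between mice. The coefficient of variation over all mice was 161% for Adipoq, 195% for Lep, 144% for Cfd, 167% for Plin1, 149% for Retn and 148% for Cidec. It was 41.6% for Fabp4 and 45.2% for Pparg. In whole muscle, fewer adipocytes and less RNA of a marker in each adipocyte cannot be told apart. Nor can fat within the muscle be told apart from fat that adhered to it when it was collected.

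Adiponectin is a hormone that raises insulin sensitivity. In NFD-C the lowest, median and highest mouse had 0.184, 0.765 and 7.31 CPM of Adipoq, in HFD-C 0.413, 1.35 and 19.4 CPM. In HFD-25% these values were 0.0608, 1.16 and 3.05 CPM, in HFD-50% 0.174, 1.16 and 6.76 CPM, in HFD-75% 0, 0.715 and 10.7 CPM, and in HFD-U 0, 0.938 and 1.73 CPM. The medians of the groups lay within 0.715 and 1.35 CPM, and the ranges of all groups overlapped. HFD-C mouse 6 alone held 71.2% of the Adipoq level summed over its group, and HFD-75% mouse 4 held 80.7% of that of its group.

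Leptin signals the size of the fat stores to the brain. Its transcript was at 0.438, 0.977 and 16.6 CPM in the lowest, median and highest HFD-C mouse, and at 0.112, 0.323 and 0.421 CPM in HFD-U. It was at 0.0603, 0.264 and 7.33 CPM in NFD-C, at 0.0921, 0.697 and 1.80 CPM in HFD-25%, at 0, 0.982 and 3.64 CPM in HFD-50%, and at 0, 0.391 and 4.23 CPM in HFD-75%. All 6 HFD-U mice lay below every HFD-C mouse, which no other marker showed in any running group. Among all features tested, 0.208% showed this separation of HFD-U from HFD-C. For Lep the gap was narrow, with 6 counts in the HFD-U mice with most counts and 7 in the lowest HFD-C mouse.

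Adipsin starts the alternative pathway of complement and is made mainly in fat. Cfd had the highest mean FPKM of the secreted and droplet markers over all mice, and its level was 0.877, 3.27 and 15.5 CPM in the lowest, median and highest HFD-C mouse. In HFD-75% the values were 0.655, 2.38 and 55.4 CPM, and in HFD-U 1.01, 5.54 and 8.26 CPM. In NFD-C they were 0.603, 3.74 and 23.3 CPM, in HFD-25% 0.547, 3.61 and 13.9 CPM, and in HFD-50% 1.40, 3.22 and 18.4 CPM. Cfd was highest in HFD-75% mouse 4, with 799 counts against 13 to 87 in the rest of the group. Resistin, a hormone named for insulin resistance in mice, was low in all groups, with medians of 0.0997 CPM in HFD-50% to 0.545 CPM in NFD-C and a highest value of 4.67 CPM in HFD-C mouse 6.

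Of the droplet proteins, Cidec was at 0.103, 1.67 and 23.4 CPM in the lowest, median and highest HFD-C mouse and at 0.280, 1.38 and 2.65 CPM in HFD-U. The medians of the other groups were 1.65 CPM in NFD-C, 1.55 CPM in HFD-25%, 3.06 CPM in HFD-50% and 0.797 CPM in HFD-75%. Plin1 was at 0, 0.428 and 10.2 CPM in HFD-C and at 0, 0.479 and 2.03 CPM in HFD-U, and its count was 0 in 7 of the 36 libraries. For both genes the ranges of all groups overlapped.

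**Figure D1:**
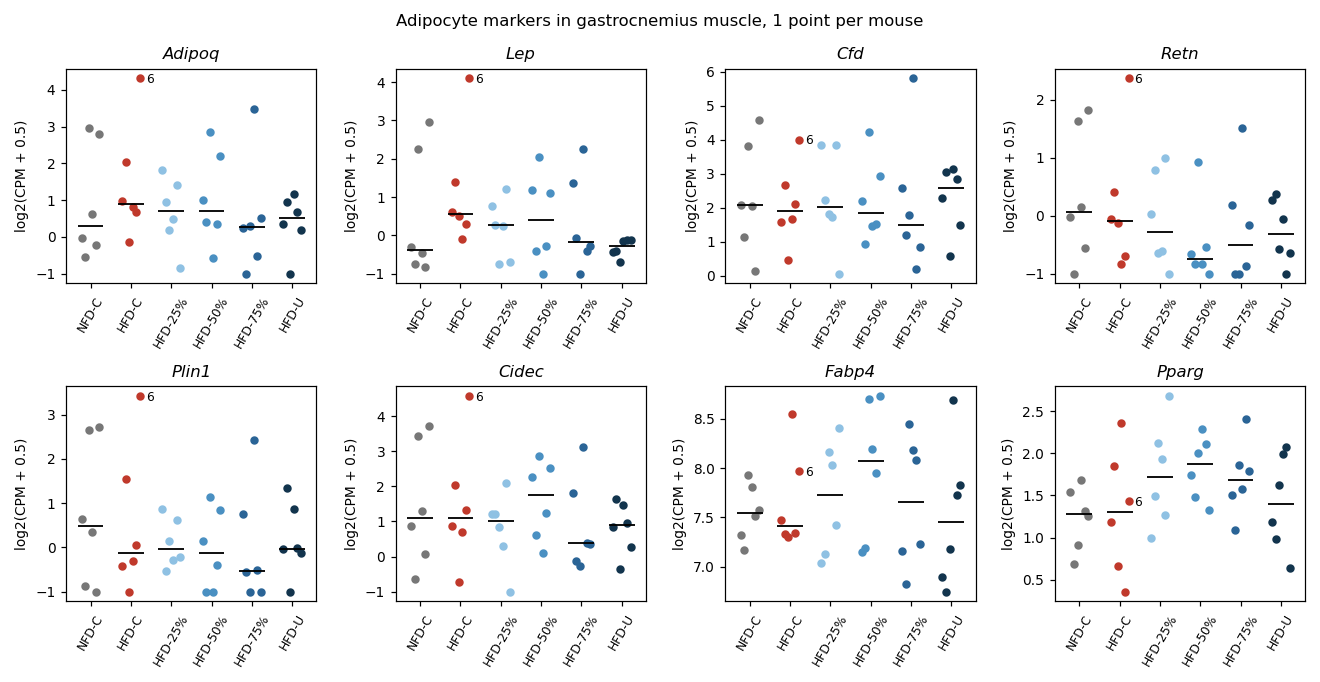
Level of 8 adipocyte markers, as log2(CPM + 0.5), in each of the 6 mice of the 6 groups; points are mice, in the order of their numbers, bars are group medians, and HFD-C mouse 6 is marked. This mouse is the highest of its group for Adipoq, Lep, Cfd, Retn, Plin1 and Cidec but not for Fabp4 or Pparg. For Lep all 6 HFD-U mice lie below the 6 HFD-C mice, as in 0.208% of all features tested.

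Within a group, the same mouse tended to carry the highest level of Adipoq, Lep, Cfd, Plin1, Retn and Cidec. In HFD-C this was mouse 6 for 6 of the 6 genes, in HFD-50% mouse 3 for 6 of 6, in HFD-75% mouse 4 for 6 of 6, and in NFD-C mouse 6 for 5 of 6. In HFD-25% mouse 5 was highest for 4 and in HFD-U mouse 2 for 3 of the 6 genes. The summed level of the 6 genes reached 89.7 CPM in HFD-C mouse 6, 85.8 CPM in HFD-75% mouse 4, 59.0 CPM in NFD-C mouse 6 and 38.7 CPM in HFD-50% mouse 3, while the medians of the groups ranged from 3.88 CPM in HFD-75% to 9.05 CPM in HFD-50%. The highest HFD-U mouse reached 14.9 CPM. These 6 genes were put together after their values were seen, so no test was run on their sum.

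Whether the markers moved together from mouse to mouse was tested for all 36 pairs of the 9 genes on log2(CPM + 0.5) over the 36 libraries, with a two-sided permutation test of 100000 resamples and Benjamini-Hochberg adjustment over the pairs. Of these pairs 16 passed an adjusted p of 0.05. All 15 pairs among Adipoq, Lep, Cfd, Plin1, Retn and Cidec passed, with Pearson's r of 0.748 to 0.920 and Spearman's rho of 0.583 to 0.882. Each of these had a permutation p of 1e-05, the smallest that the resamples can give, and an adjusted p of 2.4e-05. Without the 2 libraries farthest from the median of the first gene, r was still 0.674 to 0.891. As deviations from the group means, r was 0.786 to 0.934. Within the 26 libraries of low ribosomal share, r was 0.727 to 0.914, and within the 10 of high share 0.843 to 0.966, although there r fell to as low as 0.452 without the 2 farthest libraries.

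No relation of Fabp4 or Pparg to these genes passed. Their r with each of the 6 ranged from -0.05 to 0.26 for Fabp4 and from -0.22 to -0.11 for Pparg (12 pairs). Fabp4 and Pparg followed each other, with r = 0.56 and rho = 0.56 (permutation p = 0.00044 for r, adjusted p = 0.00099) and r = 0.61 without the 2 farthest libraries. Within the libraries of low ribosomal share, r of this pair was 0.55, and within the 10 of high share it was 0.62 and did not pass.

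**Figure D2:**
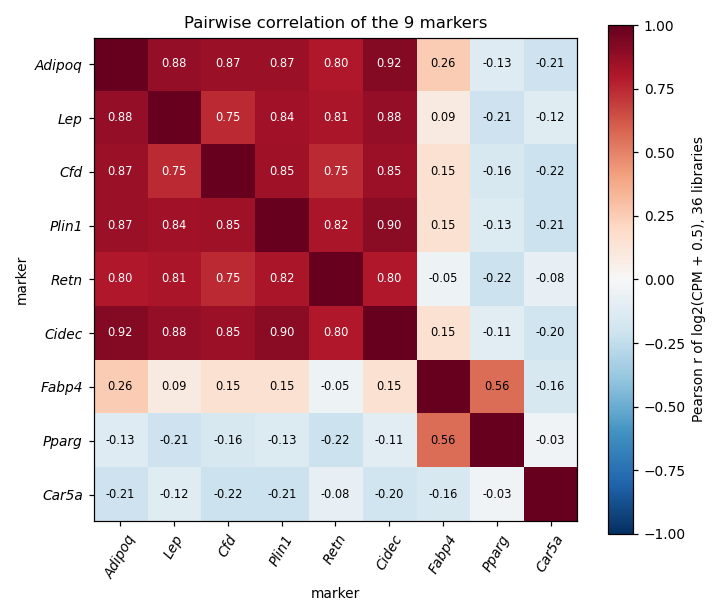
Pearson's r of log2(CPM + 0.5) between each pair of the 9 markers over 36 libraries, with r printed in each cell and the colour scale running from -1 to 1. Adipoq, Lep, Cfd, Plin1, Retn and Cidec form a block with r of at least 0.748, and Fabp4 and Pparg are joined to each other (r = 0.56) and not to the block.

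Fabp4, the fatty acid carrier, had lowest, median and highest levels of 143, 186 and 243 CPM in NFD-C, 157, 170 and 375 CPM in HFD-C and 131, 216 and 339 CPM in HFD-25%. In HFD-50% these were 141, 269 and 423 CPM, in HFD-75% 113, 210 and 349 CPM, and in HFD-U 107, 178 and 412 CPM. Pparg ranged from 0.783 CPM in an HFD-C mouse to 5.90 CPM in an HFD-25% mouse, with group medians from 1.94 CPM in NFD-C to 3.19 CPM in HFD-50%. No group stood apart from the others for either gene.

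Each marker was also set against the mean log2(CPM + 0.5) of 20 other adipocyte genes, 14 genes of fibroadipogenic cells, 12 of endothelial cells and 11 of macrophages, which gave 36 relations. Of these, 9 passed an adjusted p of 0.05. Adipoq, Lep, Cfd, Plin1, Retn and Cidec each followed the other adipocyte genes, with r from 0.69 for Retn to 0.86 for Cidec and rho from 0.44 to 0.75 (adjusted permutation p = 6e-05, and 0.000103 for Retn). Without the 2 farthest libraries r was 0.53 for Retn and 0.73 to 0.80 for the others. None of the 6 followed the endothelial, fibroadipogenic or macrophage genes at this threshold, and r of Adipoq with the endothelial genes was -0.07 (permutation p = 0.692). For the 6, r was -0.32 to -0.07 with the endothelial, 0.11 to 0.25 with the fibroadipogenic and 0.21 to 0.35 with the macrophage genes. The macrophage relation had an unadjusted permutation p below 0.05 for Adipoq (0.0417), Retn (0.0360) and Cidec (0.0484). Fabp4 followed the endothelial genes with r = 0.76 and rho = 0.67 (permutation p = 1e-05, adjusted p = 6e-05), and r was 0.70 without the 2 farthest libraries. Pparg did so with r = 0.61 and rho = 0.62 (permutation p = 6e-05, adjusted p = 0.00027), and r was 0.55 without them. Fabp4 followed the other adipocyte genes with r = 0.43 and rho = 0.42 (permutation p = 0.00797, adjusted p = 0.0319), and r was 0.36 without the 2 farthest libraries. This relation did not pass as deviations from the group means (permutation, adjusted p = 0.0586), in the 24 running libraries (0.0717), or within the libraries of low (0.0871) or high ribosomal share (0.654). That of Pparg with the endothelial genes did not pass within the 10 libraries of high share (permutation, adjusted p = 0.199).

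The genes whose pattern was most like that of Adipoq were sought among 12052 features with a mean count of at least 25, and are given as a description. Cidec stood first with r = 0.92, Lep was 4th, and Cfd 6th, whereas Fabp4 stood at position 1195 and Pparg at 8799. Of genes outside the 9, the closest was Scd1, the desaturase that makes monounsaturated fatty acids (r = 0.89, 4.63 to 100 CPM over the mice). Nnat, neuronatin, followed with r = 0.88, and Pck1, which makes glycerol for triglyceride in fat, with r = 0.87. Next came Hp, haptoglobin (r = 0.83), Ifi27l2a (0.79), Cyp2e1 (0.79), the glutamine transporter Slc1a5 (0.75), Retnla (0.66), the immediate early gene Fos (0.65) and Trf, transferrin (0.64). The 95th percentile of r with Adipoq over all features was 0.33. For Slc1a5, Retnla, Fos and Trf, rho was lower, at 0.47 to 0.58.

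The features closest to Fabp4 were of another kind. They were led by Tmsb4x, a small actin-binding peptide (r = 0.92), Ly6a, the Sca-1 antigen (0.90), Ctla2a (0.90) and Srgn, serglycin (0.89), with the haemoglobin gene Hba-a1 at 0.88. The 95th percentile of r with Fabp4 over all features was 0.61, and 8 of the 12 endothelial genes and 4 of the 5 red blood cell genes lay above it. So did Aqp7 (0.75) and Sncg (0.70) of the other adipocyte genes, Acly (0.72) of fatty acid synthesis, and the mitochondrial ribosomal RNAs mt-Rnr1 (0.73) and mt-Rnr2 (0.75). The muscle fibre gene Ttn, the longest of the lists with 117640 bases, had r = -0.81 with Fabp4. The 10 features closest to Fabp4 had a median length of 943 bases against 3792 bases for all features, and Fabp4 itself has 892. Across all features, r fell with length for both genes, with a rho of -0.26 for Fabp4 and -0.38 for Adipoq. The 10 features closest to Adipoq had a median length of 1935.5 bases. The part of transcript length in the relations of Fabp4 or of Adipoq was not tested.

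**Figure D3:**
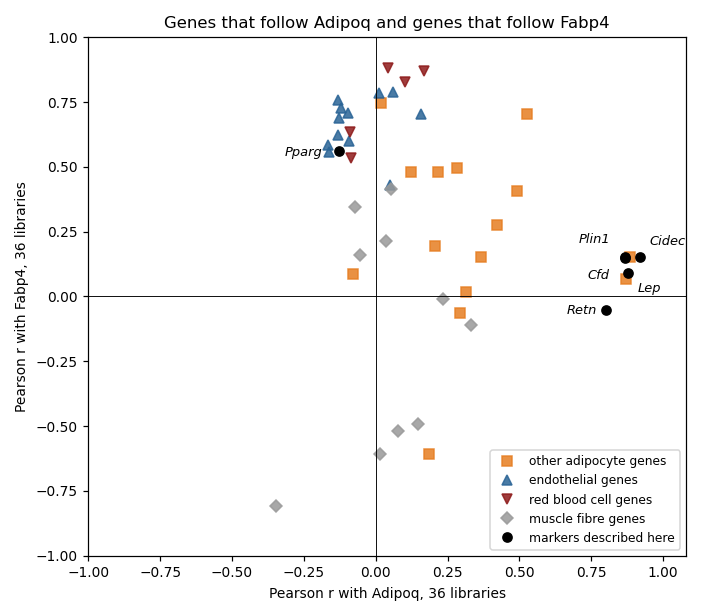
Pearson's r with Adipoq (horizontal axis) and with Fabp4 (vertical axis) over 36 libraries for markers and for genes of 4 other lists with a mean count of at least 25. Lep, Cfd, Plin1, Retn and Cidec lie at the right with r of 0.80 to 0.92 to Adipoq, and Pparg lies at the upper left among the endothelial and red blood cell genes.

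The other adipocyte genes were not alike in this respect. Of the 15 with a mean count of at least 25, 6 had an r with Adipoq above the 95th percentile, with Nnat and Pck1 the highest. The 3 most abundant per length were Gpd1, the glycerol-3-phosphate dehydrogenase of triglyceride synthesis (135 FPKM, r = 0.18 with Adipoq), Plin4, a further droplet coat protein (91.7 FPKM, r = -0.08), and Plaat3, a phospholipase (56.5 FPKM, r = 0.20). Of 10 genes of fatty acid and triglyceride synthesis with that mean count, Scd1 was the only one above the percentile. Of its most abundant members, Me1, malic enzyme (70.2 FPKM), had r = -0.03, Dgat2, which completes triglyceride (25.0 FPKM), -0.0036, and Mlxipl, a carbohydrate-responsive factor (18.7 FPKM), 0.26. Of 9 droplet genes of the muscle fibre, Fitm1, which helps droplets form, had r = 0.55 at 215 FPKM, and was the only one above the percentile.

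Each running group and NFD-C was compared with HFD-C by the quasi-likelihood test of edgeR on counts, over features with a mean count of at least 25 in the fit. Of the 9 markers, 6 were tested in the fits of HFD-25%, HFD-50% and HFD-U and 7 in those of HFD-75% and NFD-C. Retn and Car5a were below the minimum in every fit, and Plin1 in all but the latter pair. No marker passed an adjusted p of 0.05 in any of these 5 comparisons, among all running mice against HFD-C, in the response to distance (a linear and a quadratic term) or over the 6 groups, in edgeR or in DESeq2. The shares of all features that passed in these 8 fits were 0.0082, 0, 0, 0, 0, 0.3, 0.683 and 1.45%.

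At an unadjusted p of 0.05, 3 of the 6 tested markers differed between HFD-U and HFD-C, where 5.46% of all features did. These were Lep, with a log2 fold change of -3.54 ± 0.89 (SE, edgeR adjusted p = 0.402), Adipoq with -2.24 ± 0.86 (adjusted p = 0.808) and Cidec with -1.84 ± 0.86 (adjusted p = 0.912). The values of Cfd (-0.02 ± 0.57), Fabp4 (-0.07 ± 0.31) and Pparg (0.06 ± 0.42) did not pass. Deviations of same-numbered mice of these groups correlated above 0.1 in all 6 pairs. Differently numbered mice were not compared, so this cannot show that the number pairs mice. With the mouse number as a block 1 marker passed the unadjusted threshold, Lep at -2.58, while Adipoq stood at -1.41 and Cidec at -0.67. DESeq2 gave no p for Lep and passed Adipoq only. The ribosomal share differed between most HFD-C mice and HFD-U. With the 2 HFD-C mice of low share alone, 4 of the tested markers passed, with Lep at -4.81, Adipoq at -3.43 and Cidec at -3.12. These 2 were mice 5 and 6, and mouse 6 was the highest of HFD-C for all 3 genes, so this fit gives that mouse more weight.

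HFD-C mouse 6 carried much of these differences. Without it, Adipoq and Lep fell under the minimum count and 0 of the 4 markers still tested passed. With no minimum count and without this mouse, Lep was at -1.76 ± 0.58 (edgeR adjusted p = 0.465) and was the 1 marker past the unadjusted threshold, with Adipoq at -0.72 ± 0.57 (adjusted p = 0.676) and Cidec at -0.16 ± 0.53 (adjusted p = 0.956). An exact permutation test of the mean log2(CPM + 0.5), two-sided and with 6 against 6 mice, gave p = 0.00216 for Lep, the smallest this design allows, which restates that the groups do not overlap and does not pass Benjamini-Hochberg adjustment over the 45 tests. It gave no p below 0.05 for any of the other 44 tests of the 9 markers in the 5 comparisons. The test was chosen after these values were seen. Among all features tested, 0.208% had all 6 HFD-U mice below every HFD-C mouse. The gap was narrow in counts. HFD-U mice had 2 to 6 counts of Lep and the lowest HFD-C mouse had 7, with exact 95% Poisson intervals of 2.20 to 13.1 for a count of 6 and 2.81 to 14.4 for a count of 7.

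For HFD-25% against HFD-C, 1 of 6 tested markers passed the same unadjusted threshold, where 6.98% of all features did. This was Lep, with a log2 fold change of -2.22 ± 0.89 (edgeR adjusted p = 0.643). DESeq2 gave no p for it. Adipoq was at -1.71 ± 0.84 (adjusted p = 0.732) and Cidec at -1.72 ± 0.92 (adjusted p = 0.749). Without HFD-C mouse 6 and with no minimum count, these were -0.44 for Lep, -0.18 for Adipoq and -0.05 for Cidec, and 0 markers passed (edgeR adjusted p = 0.836 for Lep). The count was 4 without HFD-C mouse 3, 3 without HFD-C mouse 1, and 2 without HFD-C mouse 4 or 5 or without HFD-25% mouse 1 or 5.

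For HFD-50% and HFD-75%, 0 of 6 and 0 of 7 tested markers passed the unadjusted threshold in edgeR or in DESeq2 (which gave no p for Lep in HFD-50% nor for Cfd in HFD-75%), where 10.7% and 5.47% of all features did. The log2 fold changes in HFD-50% were -0.92 ± 0.87 for Adipoq, -1.48 ± 0.95 for Lep and -0.64 ± 0.86 for Cidec. In HFD-75% they were -1.03 ± 1.05, -1.56 ± 0.98 and -1.19 ± 0.97. Without HFD-C mouse 6 and with no minimum count they turned to 0.58, 0.27 and 1.01 in HFD-50% and to 0.46, 0.21 and 0.47 in HFD-75%. Cfd stood at 0.22 ± 0.65 in HFD-50% and 1.13 ± 0.93 in HFD-75%, where it was at -0.12 with the mouse number as a block. Without HFD-C mouse 6 and with no minimum count, Cfd in HFD-75% was at 1.82 ± 0.74 and passed the unadjusted threshold (edgeR adjusted p = 0.57). Without HFD-75% mouse 4, the count in HFD-75% was 3, with Adipoq at -3.18 and Cfd turned to -1.09, and without HFD-C mouse 4 that in HFD-50% was 2.

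**Figure D4:**
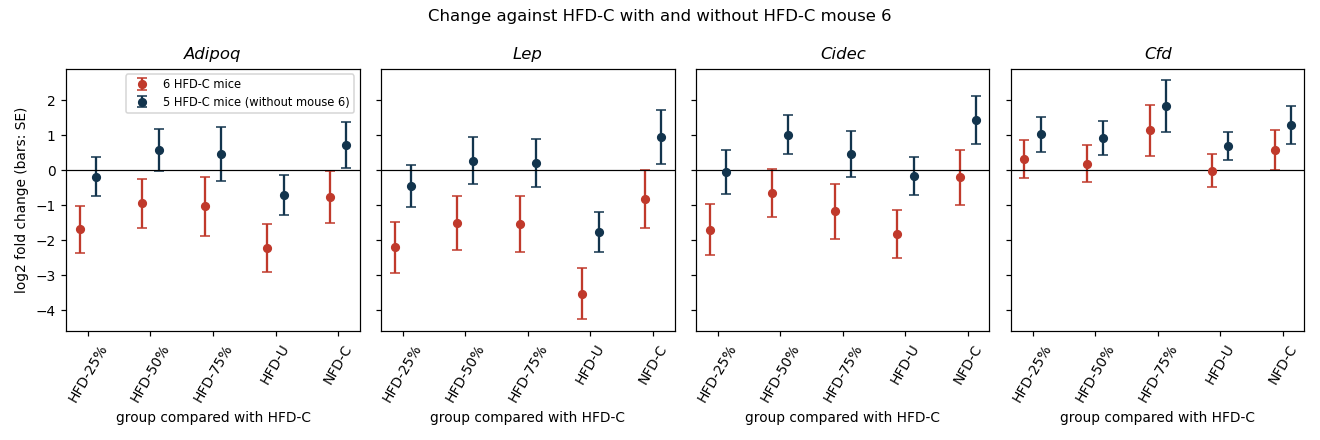
Log2 fold change against HFD-C (points) with its SE (bars) for Adipoq, Lep, Cidec and Cfd in 5 groups, in edgeR fits with no minimum count, with all 6 HFD-C mice and with 5 (without mouse 6). With 6 mice, Adipoq, Lep and Cidec lie below 0 in all 5 groups. With 5 mice, Lep in HFD-U (-1.76) is the value farthest below 0, and Cfd lies above 0 in every group.

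For the 24 running mice together against HFD-C, Adipoq had a log2 fold change of -1.39 ± 0.68 (edgeR adjusted p = 0.53) and Cidec one of -1.28 ± 0.62 (adjusted p = 0.529), while Lep was under the minimum count. At the unadjusted threshold these were 2 of 5 tested markers, against 9.27% of all features. Without HFD-C mouse 6 and with no minimum count both lay slightly above 0, at 0.13 and 0.40, and 0 markers passed in DESeq2, in a robust fit, or when same-numbered mice formed a block. Without HFD-C mouse 2 the count was 1. Along the running distance 0 of 5 tested markers had an unadjusted p of 0.05 in edgeR or in DESeq2, against 12.2% of all features. Over the 6 groups 1 of 6 did, Lep (edgeR adjusted p = 0.393), against 12.2% of all features. With no minimum count, Lep in all running mice was at -2.01 ± 0.62 (edgeR adjusted p = 0.108), and at -0.24 without HFD-C mouse 6. Lep was also under the minimum along the distance, and with no minimum it had an edgeR p of 0.0102 there (adjusted p = 0.118).

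Between the diets no marker differed beyond the spread between mice. In NFD-C against HFD-C 0 of 7 tested markers had an unadjusted p of 0.05 in edgeR or DESeq2, against 4.12% of all features. Adipoq was at -0.77 ± 0.94, Lep at -0.81 ± 1.06, Plin1 at 0.03 ± 1.11, Cidec at -0.20 ± 0.99 and Cfd at 0.59 ± 0.73. Fabp4 was at -0.16 ± 0.21 and Pparg at -0.22 ± 0.39. Within the libraries of high ribosomal share (6 NFD-C and 4 HFD-C mice) 0 markers passed as well, and Adipoq, Lep and Cidec stood above 0 there, at 0.63, 0.84 and 1.53. Without HFD-C mouse 6 and with no minimum count, 2 markers passed the unadjusted threshold, Cfd at 1.28 ± 0.55 and Cidec at 1.44 ± 0.69 (edgeR adjusted p = 0.645 for both).

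The make-up of the marker transcripts was described by the ratio of each marker to Adipoq. Where 0.5 was added, low levels pulled this ratio towards 1, so it was not free of their amount. The markers set against Adipoq included Fabp4 and Pparg, which followed the endothelial genes. Over the summed counts of a group, Cfd stood at 1.22 counts per count of Adipoq in HFD-C, against 3.17 in NFD-C and 5.43 in HFD-U. HFD-C mouse 6 gave 282 of the 439 counts of Adipoq in its group, and without it the ratio in HFD-C was 1.97. It stood at 4.67 with HFD-25%, 2.58 with HFD-50% and 5.17 with HFD-75%. The same ratio per mouse, with 0.5 added to each count, was 0.802 to 3.49 in HFD-C and 3.53 to 37.0 in HFD-U, where the highest value belonged to mouse 3, which had no count of Adipoq. In this ratio all 6 HFD-U mice lay above every HFD-C mouse, by a narrow gap (3.53 against 3.49). On log2(CPM + 0.5) 5 of the 6 did. The share of all features with such a separation was not determined. On log2(CPM + 0.5), the mean ratio of Cfd to Adipoq was 0.64 ± 0.57 (SD) in HFD-C and 1.85 ± 0.33 in HFD-U, a difference of 1.205 (two-sided exact permutation p = 0.00433). Over the 40 tests of 8 markers in 5 groups the adjusted p was 0.13, and 0 tests passed. Without HFD-C mouse 6 the difference was 1.01. With 0.5 counts in place of 0.5 CPM the difference was 1.94, with the smallest exact p the design allows (0.00216) and an adjusted p of 0.0866. The mean ratio of Cfd to Adipoq exceeded that of HFD-C in every other group too. On log2(CPM + 0.5) HFD-25% lay higher by 0.94 (exact p = 0.013) and HFD-75% by 0.92 (exact p = 0.0649). NFD-C lay higher by 0.72 (exact p = 0.0844) and HFD-50% by 0.53 (exact p = 0.13). With 0.5 counts, the difference was 1.29 for HFD-25% (exact p = 0.00649) and 1.76 for HFD-75% (exact p = 0.0368). None of these passed adjustment. The higher ratio was thus not confined to HFD-U. The ratio of Plin1 to Adipoq was also higher in HFD-U, by 0.68 (exact p = 0.00649, adjusted p = 0.13), and in NFD-C, by 0.70 (exact p = 0.0108, adjusted p = 0.13). With 0.5 counts as the pseudocount, these differences were 1.45 (exact p = 0.0216, adjusted p = 0.289) and 0.98 (exact p = 0.29, adjusted p = 0.543). Lep stood at 0.795 counts per count of Adipoq in HFD-C and at 0.322 in HFD-U, and its log2 ratio differed by -0.40 (exact p = 0.271).

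**Figure D5:**
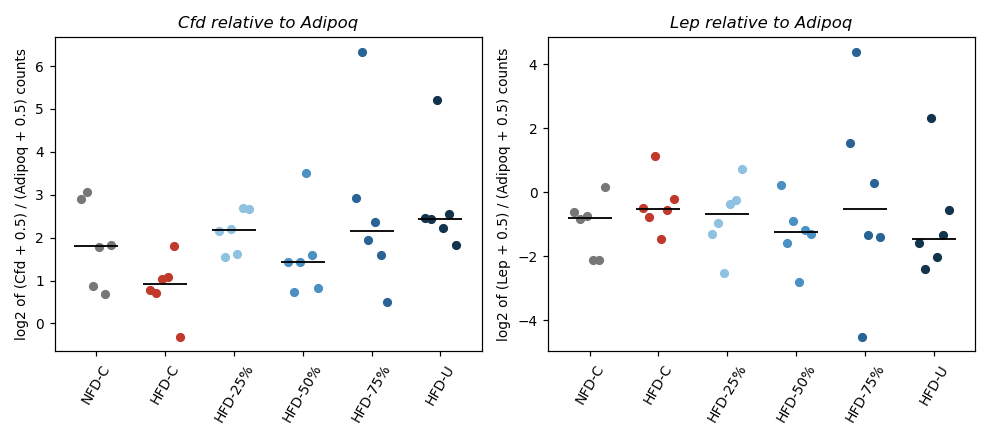
Counts of Cfd (left) and of Lep (right) relative to those of Adipoq, as log2 with 0.5 added to each count, in each mouse of the 6 groups; bars are medians. For Cfd the 6 HFD-U mice (ratios of 3.53 to 37.0) lie above the 6 HFD-C mice (0.802 to 3.49), and for Lep the groups overlap. With 0.5 added to CPM in place of counts, 5 of the 6 HFD-U mice lie above all HFD-C mice for Cfd.

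Some genes of the other lists passed adjustment. Of the 20 other adipocyte genes, 1 of 15 tested passed an adjusted p of 0.05 along the running distance. This was Plin4 (edgeR adjusted p = 0.00118), with log2 fold changes against HFD-C of 0.52, 0.84, 0.61 and 0.17 from HFD-25% to HFD-U, none of which passed adjustment in its own comparison. Of 12 endothelial genes 2 passed along the distance, Cldn5, a tight junction protein (adjusted p = 0.0108), and Egfl7 (adjusted p = 0.0366). At the unadjusted threshold in edgeR, 8 of the 12 endothelial genes were higher for HFD-25%, 7 for HFD-50%, 4 for HFD-75% and 0 for HFD-U, where 6.98, 10.7, 5.47 and 5.46% of all features passed in either direction. Of 14 fibroadipogenic genes 3, 2, 4 and 2 were lower in the same order and 0 were higher. The summed level of the 12 genes was 455 to 774 CPM in HFD-C, 542 to 1634 CPM in HFD-25%, 521 to 1249 CPM in HFD-50%, 644 to 940 CPM in HFD-75% and 470 to 984 CPM in HFD-U. Fabp4 stood at 0.05 ± 0.27, 0.38 ± 0.30, 0.04 ± 0.29 and -0.07 ± 0.31 against HFD-C in the same order, and Pparg at 0.48 ± 0.42, 0.49 ± 0.38, 0.37 ± 0.39 and 0.06 ± 0.42. Over the 6 groups, Cidea, a droplet protein of brown fat (adjusted p = 0.0329), and Pnpla2, the lipase that starts triglyceride breakdown (adjusted p = 0.041), passed as well. Cidea had r = 0.07 with Adipoq.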

How the data were processed

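The authors selected mRNA of gastrocnemius with poly-T beads, aligned the reads with HISAT2 2.0.5 and deposited raw counts per gene from featureCounts 1.5.0-p3. The submitters' processing notes name mm10, but the chromosome sequences named in the count table are those of GRCm39, so gene coordinates are given on GRCm39. Promoters from RefSeq are on GRCm38.p6. Strandedness of the libraries was not given in the sources used here. Counts were analysed in edgeR 4.0.16 (R 4.3.3) with TMM factors, a mean count of at least 25 per fit, quasi-likelihood F-tests and Benjamini-Hochberg adjustment over all features of the fit. DESeq2 1.42.0 was an alternative. CPM and FPKM were computed from the counts with the gene lengths of the table. Permutation tests used Python 3.11.15, with a pseudocount of 0.5. Tests were tried on simulated counts.

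Groups were taken from the labels, and p-values measure the spread between mice. The labels do not say whether same-numbered mice share a litter, cage or day. Their deviations from their group's mean correlated above 0.1 in 6 of 6 pairs for HFD-U and HFD-C (0.135 to 0.534) and in 1 to 5 of 6 pairs otherwise. Mice of different numbers were not compared in this way. Replicates differed by more than sampling noise (chi-square of at least 16.2 per degree of freedom).

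The 9 markers and the other lists were chosen with earlier results of these data known. Named were the 9 markers, the 3 most abundant genes per length of a list, genes past an adjusted p of 0.05, and the 10 features most like Adipoq. Genes closest to Fabp4, Fitm1 and the grouping of 6 markers were chosen after their values were seen. Alternatives are given in the closing section. Those chosen after seeing the data were the libraries of 1 ribosomal set alone, exact tests of the level, 0.5 counts as the pseudocount of ratios, and no minimum count without HFD-C mouse 6.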

Additional observations from a re-analysis of the deposited data

Results flagged for a closer look

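In each group the gap of the highest and of the lowest mouse to its nearest neighbour was compared with Dixon's 95% critical value on log2(CPM + 0.5). Of 54 groups of 6 mice (9 markers in 6 groups) 5 held such a mouse, and chance flags about 1 group in 20. Adipoq was at 10.7 CPM in HFD-75% mouse 4, Lep at 16.6 CPM in HFD-C mouse 6, and Retn at 1.41 CPM in HFD-50% mouse 3, each the highest of its group. The remaining values were of Car5a, at 0.142 CPM (4 counts) in HFD-C mouse 1 and 0.280 CPM (5 counts) in HFD-U mouse 3. There the rest of the group had no count, so these flags were bound to appear. The other Car5a groups had no count at all and could not be flagged.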

How the results depend on the processing

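The number of markers past an unadjusted p of 0.05 in edgeR changed as follows. In HFD-25% (1 marker) it was 0 in DESeq2, with a replicate block and in the exact test, 4 with no minimum count and in the libraries of low ribosomal share, 3 with that share as a covariate, and 0 to 4 when single mice were left out. In HFD-50% (0 markers) it was 1 with the covariate, 4 in the low-share libraries, and 0 to 2 with single mice left out. In HFD-75% (0) it was 1 with the covariate, 2 in the low-share libraries, and 0 to 3 with single mice left out. The low-share libraries of HFD-C were those of mice 5 and 6 alone, and mouse 6 was the highest of HFD-C for 6 markers. In HFD-U (3) it was 1 in DESeq2, with the replicate block and in the exact test, and 0 to 3 with single mice left out. In all running mice (2) it was 0 in DESeq2, in a robust fit and with the block, 4 with no minimum count, and 0 to 3 with single mice left out. Along the distance (0) it was 2 with no minimum count, Lep and Car5a, and 1 in the low-share libraries. Car5a had no count in 34 of the 36 libraries. Over the 6 groups (1) the number was 2 with no minimum count, again Lep and Car5a, and 0 in a robust fit or with the block. With no minimum count and without HFD-C mouse 6, a setting chosen after seeing the data, it was 0 in HFD-25% and all running mice, 1 in HFD-75%, HFD-U and along the distance, and 2 in NFD-C.

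Some log2 fold changes turned. In that last setting Adipoq, Lep and Cidec were at 0.58, 0.27 and 1.01 in HFD-50%, at 0.46, 0.21 and 0.47 in HFD-75%, and at 0.72, 0.94 and 1.44 in NFD-C, and Adipoq and Cidec at 0.13 and 0.40 in all running mice. In NFD-C they were at 0.41, 0.61 and 1.27 with the covariate and at 0.63, 0.84 and 1.53 in the high-share libraries. With the replicate block Cidec was at 0.0278 in HFD-50%. With single mice left out, Adipoq ranged from -1.62 to 0.59 in HFD-50%, -3.18 to 0.47 in HFD-75%, -1.38 to 0.73 in NFD-C and -1.64 to 0.12 in all running mice. Lep ranged from -1.94 to 0.94 in NFD-C. Cidec ranged from -0.997 to 1.02 in HFD-50%, -2.27 to 0.47 in HFD-75%, -0.89 to 1.45 in NFD-C and -1.54 to 0.39 in all running mice. The causes were not tested. In all, 260 of 335 alternative values of these 3 genes kept direction and side of the threshold. So did 332 of 393 for Cfd, Plin1, Fabp4 and Pparg, where 54 turned, and 76 of 76 for the ratios of Lep and Cfd to Adipoq. Most of these 76 left out a mouse of a group outside the comparison and could not differ from the main value. The counts of passing pairs (16), list relations (9) and ratios (0) stayed within 1.5 times. Depth limits the low markers, since Plin1 had no count in 7 of the 36 libraries and Adipoq and Lep in 2 each.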
